A study of Drosophila melanogaster and Drosophila virilis with 60 samples.

Results

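The Ccp84A cluster is a group of 7 genes of *Drosophila melanogaster* that code for cuticle proteins, Ccp84Aa (FBgn0004783), Ccp84Ab (FBgn0004782), Ccp84Ac (FBgn0004781), Ccp84Ad (FBgn0004780), Ccp84Ae (FBgn0004779), Ccp84Af (FBgn0004778) and Ccp84Ag (FBgn0004777). The genes were chosen by name, and all 7 were found among the 14127 genes listed for this species. Their values vary between libraries, so that all 7 entered every test over the 14047 genes that varied. The RNA came from whole bodies of Oregon-R animals reared at 25 °C, each library being made from several pooled individuals, and 30 libraries covered 10 stages. The stages were the embryo at 10 h, larvae, the stages P1 to P5 of early metamorphosis, mid pupae at 24 h, late pupae at 48 h and the imago at 5 d, with 3 libraries each. The imago libraries were from males only, whereas the sex of the other animals was not determined. The larval libraries were 1 each of the 1st, 2nd and 3rd instar and are therefore not repeats of a single condition. The 2nd instar library, which the methods set aside for its quality, was left out of the comparisons between stages, and its values are described separately.

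The cuticle of insects is an extracellular layer of chitin fibres and proteins that the epidermis secretes anew at each moult. Most of its proteins belong to the CPR family, named after the Rebers and Riddiford consensus, a stretch of sequence that binds chitin, and the Ccp84A proteins are members of this family. Pulses of the moulting hormone 20-hydroxyecdysone time the secretion of embryonic, larval, pupal and adult cuticle, and the prepupal factor encoded by ftz-f1 is known to act on pupal cuticle genes such as Edg84A. How the individual Ccp84A proteins differ in function is much less well described than the behaviour of the family.

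The libraries held 7350353 to 13434700 counts each, with 11282 to 13249 genes detected. Outside the larvae, the mean Spearman correlation of a library with the others of its stage was at least 0.954. Genes of the salivary glue, the secretion that fixes the puparium, summed to 66087 normalized counts in the 3rd instar library and to no more than 3205 in any other, and genes of the male accessory gland summed to at least 17329 normalized counts in every imago library and to no more than 34.9 elsewhere. A normalized count is a count divided by the size factor of its library. In whole bodies, fewer cuticle-secreting cells and less RNA per cell cannot be told apart.

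The 7 genes lie within 18.2 kb of chromosome 3R, at 3R:6686728-6704903 of the BDGP6.54 annotation. This stretch is part of the Antennapedia complex, between the homeotic genes lab and pb. The order along the chromosome was Ccp84Ag, Ccp84Af, Ccp84Ae, Ccp84Ad, Ccp84Ac, Ccp84Ab and Ccp84Aa. Ccp84Ag, Ccp84Ad and Ccp84Aa are on the plus strand, and the other 4 are on the minus strand. The largest gap, between Ccp84Ac and Ccp84Ab, holds the noncoding gene lncRNA:CR33938, which was not analysed here. Ccp84Ab and Ccp84Aa face away from each other, with 1206 bp between their starts. Edg84A, a further cuticle gene of the CPR family, ends 1570 bp before Ccp84Ag.

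All 7 genes are annotated with a single transcript of 2 exons. The first coding exon holds 12 coding bases in each, and a short intron of 55 to 215 bp separates it from the rest. A first coding exon of this length was found in 36 of 92 other CPR genes (39.1%) and in 150 of 13986 protein-coding genes (1.07%). The encoded proteins are 151 to 221 residues long, Ccp84Af being the shortest and Ccp84Ab the longest. Reads from near-identical stretches of neighbouring copies may be split between them, and how far this touches the values below was not tested.

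At P4, the stage in which the head everts, 6 of the 7 genes were high, and Ccp84Ac was not. Ccp84Ae reached the highest level, with 9719.6, 8295 and 7276 normalized counts in the P4 libraries and 0 in all 3 P3 libraries. Since a count of 0 allows up to 3 counts per library, this was an at least 2656-fold higher level at P4. Ccp84Ag had 6941, 6940.3 and 6601 normalized counts at P4, against 8.97, 9.24 and 5.11 at P3, an 878-fold difference. The 3 P4 libraries of these genes were close to each other and far above every P3 library.

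Ccp84Ad had 2890.1, 3051 and 2861 normalized counts at P4, against 68.7, 46.2 and 65.5 at P3, and its P3 values were the highest of the 7 genes. Ccp84Aa had 2983, 2695 and 2413 normalized counts at P4, against 28.9, 34.7 and 29.7 at P3. The ratios were 48.8 for Ccp84Ad and 86.8 for Ccp84Aa. Both genes are on the plus strand. Ccp84Ab had 589.7, 633 and 556 normalized counts at P4, against 8.97, 4.62 and 11.3 at P3. Ccp84Af had 553, 537 and 464 normalized counts at P4, against 3.99, 2.31 and 3.07 at P3. The ratios were 71.6 for Ccp84Ab and 166 for Ccp84Af, and in none of the 6 genes did the ranges of P4 and P3 overlap. Ccp84Ac had 7.03, 0 and 1.03 normalized counts at P4 and 0 in every P3 library.

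**Figure D1:**
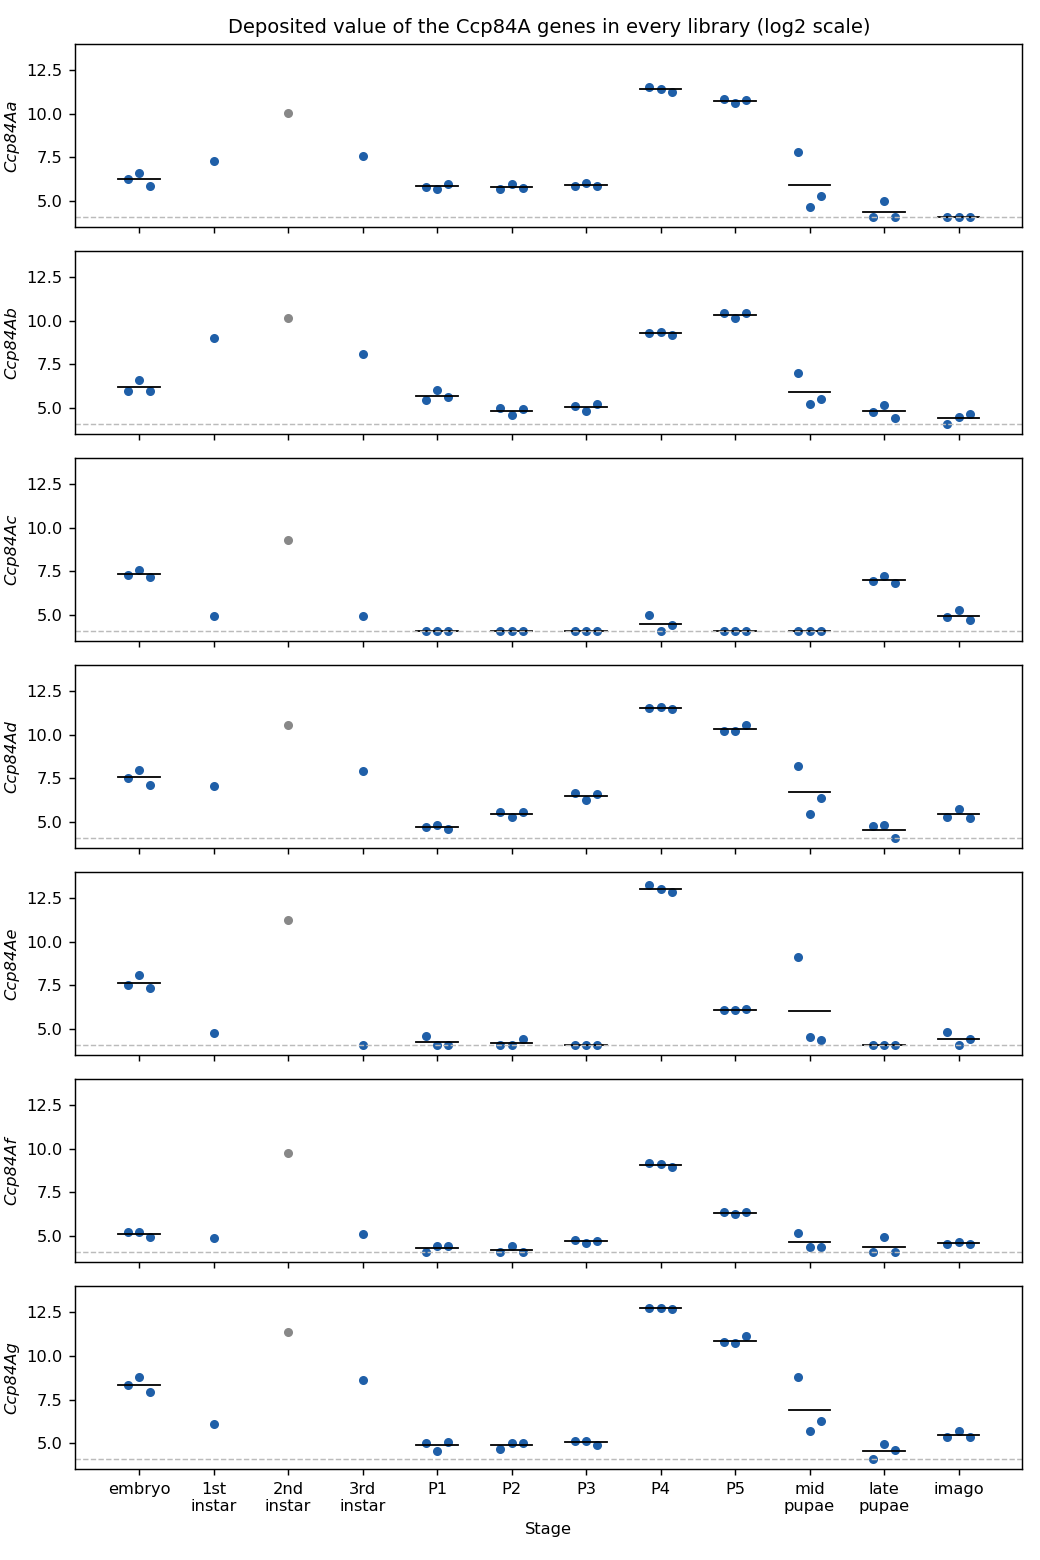
Deposited value (log2 scale, y axis) of each Ccp84A gene in every library, by stage (x axis). Points are libraries, the grey point is the 2nd instar library, horizontal bars are stage means and the dashed line is the value of a count of 0. Ccp84Aa, Ab, Ad, Ae, Af and Ag are high at P4 and in the 2nd instar, Ccp84Ac in the embryo, the 2nd instar and late pupae, and mid pupae replicate 1 lies above the other 2 mid pupae libraries in all genes but Ccp84Ac.

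On the deposited log2 scale, limma called 6 of the 7 genes higher at P4 than at P3 at an adjusted p under 0.05, a direction in which 11.1% of all genes were called. The differences were 8.95 for Ccp84Ae (SE 0.69, adjusted p = 2.99e-10), 7.71 for Ccp84Ag (SE 0.55, adjusted p = 7.1e-11), 5.50 for Ccp84Aa, 5.04 for Ccp84Ad, 4.41 for Ccp84Af (SE 0.20, adjusted p = 2.74e-14) and 4.23 for Ccp84Ab. Among the differences of the 14047 genes, Ccp84Ae ranked 7th and Ccp84Ag ranked 14th from the highest. The difference of 0.42 for Ccp84Ac did not pass the test (adjusted p = 0.0767), with a 95% interval of 0.08 to 0.77.

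The median difference of the 7 genes was 5.04, against 0.10 over all genes. Each stage was also compared with the mean of the other 9 stages. At P4 the same 6 genes were higher, where 18.9% of all genes were called higher, by 3.08 (Ccp84Ab) to 8.01 (Ccp84Ae) on the log2 scale. Ccp84Ac was called lower by -0.46, where 17.8% of all genes were called lower, and this call was lost with all 30 libraries (-0.62, adjusted p = 0.307), with voom and without P4 replicate 2. None of these P4 calls of the 6 genes was lost when any of the 29 libraries was left out.

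The stages before the pulse were marked by low values. At P1, where 22.3% of all genes were called lower, all 7 members were lower than the mean of the other stages. The same held for all 7 at P2, where 21.1% of all genes were called lower, and for 6 at P3, where 20.3% were. With all 30 libraries, 4 members were lower at P1, 5 at P2 and 2 at P3, where 21.4%, 20.3% and 19.4% of all genes were called lower, and voom called 5, 6 and 4. The mean of the other stages includes P4, where 6 members were high. For these 6, calls of lower at other stages, including late pupae and the imago, thus partly restate the pulse. Ccp84Aa, for example, had means of 28.2, 26.8 and 31.1 normalized counts at P1, P2 and P3, against 2.34 in late pupae and 0 in the imago. From P1 to P3 the highest value of Ccp84Ae was 2.37 normalized counts, that of Ccp84Af 3.99 and that of Ccp84Ag 9.24. Ccp84Ac had no count in any of these 9 libraries.

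The other 3 members were not at this level throughout. Ccp84Ab had 16.6, 35.4 and 21.5 normalized counts at P1 and at most 11.3 at P2 and P3. Ccp84Aa stayed between 23.4 and 34.7 normalized counts in all 9 libraries from P1 to P3. Ccp84Ad had 3.56, 4.92 and 2.05 normalized counts at P1, 19.0, 12.9 and 20.01 at P2 and 68.7, 46.2 and 65.5 at P3, so that its 3 ranges did not overlap. On the deposited scale limma called no member at the step from P1 to P2 or at the step from P2 to P3. In these steps 2.72% and 4.19% of all genes were called higher, and 3.25% and 2.48% were called lower. At an unadjusted p under 0.05, 1 member was lower at P2 than at P1 and 2 members were higher at P3 than at P2, and limma voom on the counts called 0 in both steps. The difference of Ccp84Ad between P3 and P2 was 1.02 (adjusted p = 0.208), and it passed the test (adjusted p = 0.0156) without mid pupae replicate 1, a library described below. Without that library Ccp84Ab was called lower at P2 than at P1 (-0.86, adjusted p = 0.0321).

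**Figure D2:**
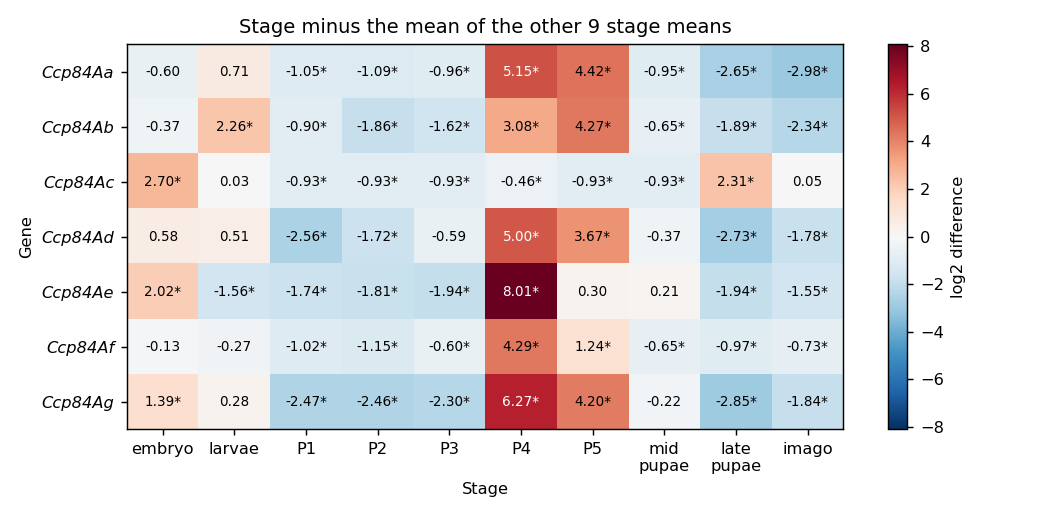
Difference between each stage and the mean of the other 9 stage means (log2 scale, colour and printed value) for the 7 genes (rows) and 10 stages (columns), with 29 libraries in the fit. An asterisk marks an adjusted p under 0.05. The highest value is that of Ccp84Ae at P4, 8.01, and Ccp84Ac is called higher only in the embryo (2.70) and in late pupae (2.31).

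After P4 the 6 genes parted. At P5, the stage that follows head eversion, Ccp84Ab was higher than at P4, with 1371, 1099 and 1374 normalized counts at P5, against 589.7, 633 and 556 at P4, a 2.16-fold difference. Ccp84Ae had 38.5, 37.6 and 40.7 normalized counts at P5, against 9719.6, 8295 and 7276 at P4, a 217-fold lower level. Ccp84Af was 10.1-fold lower, with 53.8, 46.0 and 54.0 normalized counts at P5 and 553, 537 and 464 at P4. The genes of the first pair of neighbours on the minus strand, Ccp84Af and Ccp84Ae, thus had the largest decreases.

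Ccp84Ag had 1716, 1644 and 2239 normalized counts at P5, against 6941, 6940.3 and 6601 at P4, a 3.66-fold lower level. Ccp84Ad had 1174, 1151 and 1468 normalized counts at P5, against 2890.1, 3051 and 2861 at P4, a 2.32-fold lower level. Ccp84Aa had 1819.9, 1512 and 1749 normalized counts at P5, against 2983, 2695 and 2413 at P4, a 1.59-fold lower level. In each of the 6 genes the P5 libraries did not overlap the P4 libraries. Ccp84Ac had no count in any P5 library.

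limma called Ccp84Ab higher at P5 than at P4 by 1.06 on the log2 scale (SE 0.33, adjusted p = 0.024), where 7.93% of all genes were called higher. It called 4 members lower, where 10.8% of all genes were called lower, with differences of -6.93 for Ccp84Ae (adjusted p = 2.79e-08), -2.75 for Ccp84Af (adjusted p = 1.64e-10), -1.87 for Ccp84Ag (adjusted p = 0.0162) and -1.20 for Ccp84Ad (adjusted p = 0.0409). The difference of -0.66 for Ccp84Aa did not pass the test (adjusted p = 0.401, 95% interval -1.61 to 0.29). This test and interval use a spread pooled over all stages. For Ccp84Aa the SD was 0.15 at P4 and 0.14 at P5, but 1.69 in mid pupae, whose replicate 1 is described below. The calls of Ccp84Ae and Ccp84Af held without each library in turn. The call of Ccp84Ad was lost without any 1 of the 6 P4 and P5 libraries, that of Ccp84Ab without P4 replicate 1 or 3 or P5 replicate 1 or 3, and that of Ccp84Ag without P5 replicate 1 or 2, so that between 2 and 6 members were called in these fits, the lowest number without P5 replicate 1 and the highest without mid pupae replicate 1. With counts scaled to the library total (CPM), which moved the median of all genes by 0.36 on the log2 scale at this step, each member kept its direction and 2 were called, Ccp84Ae and Ccp84Af.

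Against the mean of the other 9 stages, 5 members were higher at P5, where 12.8% of all genes were called higher. They were Ccp84Aa (4.42), Ccp84Ab (4.27), Ccp84Ag (4.20), Ccp84Ad (3.67) and Ccp84Af (1.24), whereas the difference of 0.30 for Ccp84Ae did not pass the test (adjusted p = 0.705). Ccp84Ab was thus the 1 member with a higher mean at P5 than at every other stage in the fit.

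**Figure D3:**
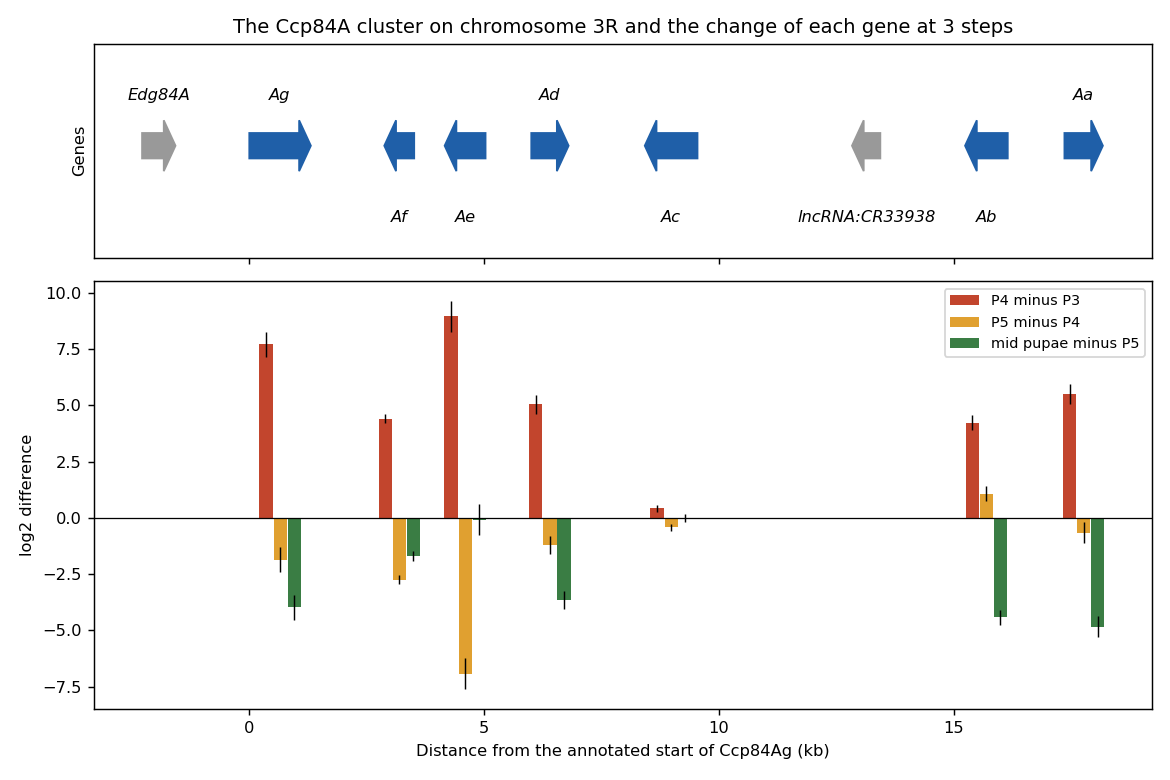
Upper panel, the Ccp84A genes (blue) and 2 other genes (grey) on chromosome 3R, with arrows along the direction of transcription and the distance from the annotated start of Ccp84Ag in kb on the x axis. Lower panel, the log2 difference of each gene at 3 steps (bars, with error bars for the standard error); the P4 minus P3 bar is over 4 in all genes but Ccp84Ac, and the P5 minus P4 bar is above 0 only for Ccp84Ab.

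The proportions of the genes within the cluster changed accordingly. Per kb of transcript, the 7 genes summed to 26529 ± 2271 normalized counts at P4 and to 7312 ± 816 at P5 (SD, n = 3 each). At P4, Ccp84Ae made up 42.0% of this sum, Ccp84Ag 23.5%, Ccp84Ad 15.1% and Ccp84Aa 13.3%, while Ccp84Af and Ccp84Ab were at 3.37% and 2.69%. At P5, Ccp84Aa was at 30.4%, Ccp84Ad at 23.5%, Ccp84Ag at 23.2% and Ccp84Ab at 21.0%, while Ccp84Ae was at 0.71%. With coding length in place of transcript length, the share of Ccp84Ae at P4 was 36.6% and that of Ccp84Aa at P5 was 27.0%.

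**Figure D4:**
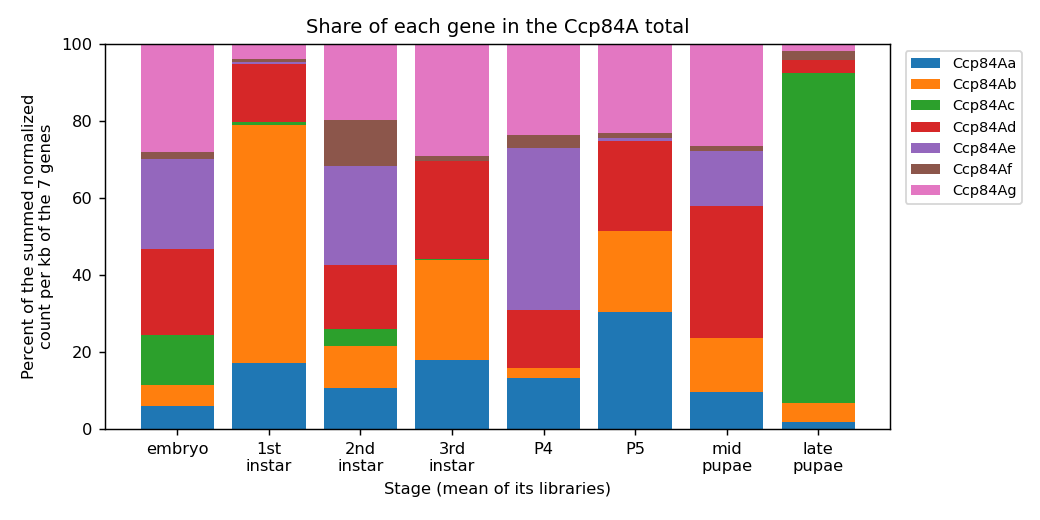
Share of each gene (colours) in the summed normalized count per kb of transcript of the 7 genes (y axis, percent, mean of the libraries of a stage). The x axis shows the embryo, the instars, P4, P5, mid pupae and late pupae. Ccp84Ae takes 42.0% at P4 and 0.71% at P5, Ccp84Ab takes 61.8% in the 1st instar, and Ccp84Ac takes 85.6% in late pupae.

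By mid pupae 5 of the members had fallen, but the 3 libraries were not alike. Ccp84Ag had 411, 22.9 and 45.6 normalized counts in mid pupae, against 1716, 1644 and 2239 at P5. Ccp84Aa had 196, 2.46 and 12.3 normalized counts in mid pupae, against 1819.9, 1512 and 1749 at P5. Ccp84Ab had 98.6, 11.5 and 18.1 normalized counts in mid pupae, against 1371, 1099 and 1374 at P5. In all 3 genes replicate 1 was the highest of the mid pupae libraries and still below every P5 library.

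Ccp84Ae behaved differently in this library, having 532 normalized counts in mid pupae replicate 1, 1.64 in replicate 2 and 0.723 in replicate 3, against 38.5, 37.6 and 40.7 at P5. The value of replicate 1 was thus between those of P4 and P5. The median difference of the 7 members between replicate 1 and the mean of the other 2 was 2.27 on the deposited scale, and 5 of 7 members differed by over 1. This was so for 5 of the 7 genes Lcp1 to Lcp4, Edg78E, Edg84A and Pcp, which code for larval and pupal cuticle proteins, for 3 of 10 Lcp65A genes, a further cluster of cuticle genes, for 4 of 12 genes of the ecdysone cascade, for 17 of 91 other CPR genes (18.7%) and for 470 of 14047 genes (3.35%). In contrast, 1 of 26 Tweedle genes, a separate family of cuticle proteins, was higher in replicate 1 by over 1. So were 1 of 13 genes of chitin synthesis and modification and 0 of 10 other genes of the Antennapedia complex. Edg84A had 2649 normalized counts in replicate 1, 0.819 in replicate 2 and 7.96 in replicate 3. The 1558 genes other than the members that were called higher at P4 than at P3 summed to 765338 normalized counts in replicate 1, 610548 in replicate 2 and 643662 in replicate 3. Its part in the results was tested by leaving this library out.

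limma called 5 members lower in mid pupae than at P5, where 7.36% of all genes were called lower, by -4.83 for Ccp84Aa (adjusted p = 4.9e-08), -4.43 for Ccp84Ab, -3.97 for Ccp84Ag, -3.64 for Ccp84Ad and -1.70 for Ccp84Af. The difference of -0.08 for Ccp84Ae did not pass the test (adjusted p = 0.997). Without mid pupae replicate 1, 6 members were called at this step.

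Ccp84Ac followed a course of its own. It had 90.1, 118 and 83.9 normalized counts in late pupae, against 0 in all 3 mid pupae libraries, an at least 40.9-fold higher level. The difference was 2.92 on the log2 scale (SE 0.17, adjusted p = 7.14e-13), in a step where 18.4% of all genes were called higher. It had 5.17, 12.6 and 3.54 normalized counts in the imago, against 90.1, 118 and 83.9 in late pupae, a 13.7-fold lower level (-2.03 on the log2 scale, adjusted p = 2.11e-10), where 20.9% of all genes were called lower. No other member was called at this last step. Both p values of Ccp84Ac rest on a spread pooled over all stages. Since P1, P2, P3, P5 and mid pupae held no count of it, they do not measure the spread of late pupae or imago libraries alone. Per kb of transcript Ccp84Ac made up 85.6% of the sum of the 7 genes in late pupae, which was only 111 ± 38.8 normalized counts per kb (SD, n = 3).

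The other members were near 0 by late pupae. Ccp84Ae had no count in any late pupae library, and the highest value among the other 5 was 10.5 normalized counts, that of Ccp84Ab in replicate 2. Against mid pupae, 5 members were called lower in late pupae, where 12.2% of all genes were called lower, by -1.11 for Ccp84Ab to -2.37 for Ccp84Ag. Without mid pupae replicate 1 the calls of Ccp84Aa (-0.56, adjusted p = 0.0906), Ccp84Ab (-0.57, adjusted p = 0.124) and Ccp84Ae (-0.37, adjusted p = 0.255) were lost, and 3 members were called in either direction. The number was also 3 without late pupae replicate 3 and 4 without late pupae replicate 1. Against the mean of the other 9 stages, 6 members were lower in late pupae, where 25.0% of all genes were called lower, and Ccp84Ac was higher by 2.31, where 26.8% were called higher.

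In the imago, Ccp84Aa had no count in any library. Ccp84Ad had 12.9, 25.3 and 11.5 normalized counts in the imago, and Ccp84Ag had 13.8, 22.7 and 13.3. These values were above every late pupae value of either gene, but the differences, 0.86 for Ccp84Ad (adjusted p = 0.0743) and 0.91 for Ccp84Ag (adjusted p = 0.161), did not pass the test on the deposited scale. Without mid pupae replicate 1, 3 members were called at this step. Relative to the mean of the other stages 6 members were lower in the imago, where 28.3% of all genes were called lower, and the difference of 0.05 for Ccp84Ac did not pass the test (adjusted p = 0.713).

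The embryo at 10 h held counts of all 7 genes, at levels below those of P4 for each gene but Ccp84Ac. Ccp84Ag had 283, 412 and 214 normalized counts, Ccp84Ae had 149.9, 239 and 132, Ccp84Ad had 149, 225 and 110.2, and Ccp84Ac had 126, 157 and 113. Replicate 2 was the highest in all of them. Ccp84Aa and Ccp84Ab were between 28.3 and 66.0 normalized counts, and Ccp84Af was between 6.16 and 11.1. Against the mean of the other 9 stages, 3 members were higher in the embryo, where 27.6% of all genes were called higher, Ccp84Ac by 2.70 (SE 0.12, adjusted p = 1.26e-14), Ccp84Ae by 2.02 (adjusted p = 0.00128) and Ccp84Ag by 1.39 (adjusted p = 0.00441). With all 30 libraries in the fit, 1 member was called higher in the embryo, where 27.2% of all genes were. This was Ccp84Ac, by 2.54 (SE 0.46, adjusted p = 3.1e-05). In both fits the spread of Ccp84Ac was pooled over all stages, and P1, P2, P3, P5 and mid pupae held no count of it. Its p therefore does not measure the spread of the embryo libraries alone (SD 0.20 on the log2 scale).

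The 3 instars differed strongly in these genes. Ccp84Ag had 38.7 normalized counts in the 1st instar, 2654 in the 2nd and 359 in the 3rd. Ccp84Ae had 3.87 normalized counts in the 1st instar, 2377 in the 2nd and 0 in the 3rd. Ccp84Af had 5.16 normalized counts in the 1st instar, 844 in the 2nd and 8.96 in the 3rd. The 2nd instar library was thus the highest of the 3 for each of these genes. By normalized counts the 3rd instar value of Ccp84Ag lay within the range of its embryo libraries. By CPM it was 8.93, below the embryo range of 35.1 to 64.4.

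Ccp84Ac, which stayed near 0 throughout early metamorphosis, had 6.45 normalized counts in the 1st instar, 589 in the 2nd and 5.98 in the 3rd, and the 2nd instar value was its highest in any library. Ccp84Ad had 102 normalized counts in the 1st instar, 1503 in the 2nd and 209 in the 3rd. Ccp84Aa had 123, 1010.2 and 155 normalized counts in the 1st, 2nd and 3rd instar. Ccp84Ab showed the least contrast, with 477 normalized counts in the 1st instar, 1106 in the 2nd and 242 in the 3rd. It took 61.8% of the per-kb sum of the cluster in the 1st instar, with Ccp84Aa at 17.3% and Ccp84Ad at 15.0%.

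Since each instar is a single library, tests between instars assume that it varies as the replicated stages do, and a difference between libraries cannot be told apart from one between instars. In a fit of all 30 libraries with each instar as a group, chosen after the values were seen, 6 members were higher in the 2nd than in the 1st instar, where 10.8% of all genes were called higher. Their differences were 6.47 for Ccp84Ae (adjusted p = 0.000417), 5.30 for Ccp84Ag, 4.91 for Ccp84Af, 4.32 for Ccp84Ac (adjusted p = 1.47e-10), 3.52 for Ccp84Ad and 2.76 for Ccp84Aa, whereas 1.16 for Ccp84Ab did not pass the test (adjusted p = 0.156). All 7 were lower in the 3rd than in the 2nd instar, where 12.5% of all genes were called lower, by -2.05 for Ccp84Ab to -7.15 for Ccp84Ae. On the log2(normalized count + 1) scale only 3 of these 7 calls held. The 2nd instar library had the fewest genes detected, 11282, and its quality was the reason given for setting it aside. Its mean Spearman correlation with the other larval libraries was 0.916. The part of its quality in these values was not tested.

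Between the embryo and the 1st instar, Ccp84Ab was higher in the 1st instar by 2.82 (adjusted p = 9.91e-06), where 31.6% of all genes were called higher, and Ccp84Ac (-2.39), Ccp84Ae (-2.88) and Ccp84Ag (-2.25) were lower, where 23.4% were called lower. Between the 3rd instar and P1, 6 members were lower at P1, where 31.0% of all genes were called lower, by -3.73 for Ccp84Ag to -0.79 for Ccp84Af. This step depends on the scaling. With CPM the median of all genes moved by 1.07 on the log2 scale between larvae and P1, and 2 of the 7 members were called between the 3rd instar and P1. Ccp84Aa, for example, was 5.51-fold lower at P1 by normalized counts, and its ratio of P1 to the 3rd instar was 0.805 by CPM.

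In the fit of 29 libraries, where larvae are the 1st and 3rd instar, 1 member was higher in larvae than in the other stages, Ccp84Ab by 2.26 (adjusted p = 5.53e-07), where 29.1% of all genes were called higher, and Ccp84Ae was lower by -1.56 (adjusted p = 0.0289), where 39.3% were called lower. This last call was lost without either of the larval libraries and with voom, and with all 30 libraries the difference was 0.71 (adjusted p = 0.468). With the 2nd instar included, 6 members were called higher in larvae, where 30.8% of all genes were. At the step from the embryo to larvae Ccp84Ab was higher by 2.37, where 31.9% of all genes were called higher, and Ccp84Ac and Ccp84Ae were lower by -2.40 and -3.23, where 25.2% were called lower. With CPM, which moved the median of all genes by -1.62 at this step, the call of Ccp84Ab was lost and 5 members were called lower. By CPM the median difference over 10365 better expressed genes was -0.96. The share of all genes called lower by CPM is not given here, so the count of 5 is not read as a result about the members. At the step from larvae to P1, 6 members were lower at P1, where 28.9% of all genes were called lower, and 3 without the 3rd instar library.

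The 2 peaks of the cluster, at P4 and in the 2nd instar, differed in the proportions of the genes. Ccp84Ae, Ccp84Aa, Ccp84Ag and Ccp84Ad had 3.55, 2.67, 2.57 and 1.95 times the normalized count of the 2nd instar library at P4. Ccp84Ab and Ccp84Af were 1.87-fold and 1.63-fold lower at P4. Ccp84Ac had 7.03, 0 and 1.03 normalized counts at P4, against 589 in the 2nd instar. By CPM the P4 to 2nd instar ratios were 5.45 for Ccp84Ae, 4.11 for Ccp84Aa, 3.97 for Ccp84Ag and 3.02 for Ccp84Ad. They were 0.829 for Ccp84Ab and 0.948 for Ccp84Af. limma called Ccp84Ac (-4.77, adjusted p = 4.14e-14) and Ccp84Af (-0.67, adjusted p = 0.0419) lower at P4 than in the 2nd instar, where 28.5% of all genes were called lower, and none of the 4 genes with higher levels, where 37.5% were called higher. The call of Ccp84Af was lost with replicate number as a block (-0.60, adjusted p = 0.0793), with CPM and with voom. Those 4 differences were 0.95 to 1.80, with unadjusted p under 0.05 for Ccp84Aa and Ccp84Ag. Without mid pupae replicate 1 all 7 passed the test. Voom on the counts called 5.

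Ordered by mean normalized count, the first 3 groups were P4, the 2nd instar and P5 for Ccp84Ad and Ccp84Ag, P4, P5 and the 2nd instar for Ccp84Aa, P5, the 2nd instar and P4 for Ccp84Ab, and the 2nd instar, P4 and P5 for Ccp84Af. Neighbours in these orders did not overlap, except that the 2nd instar value of Ccp84Ab lay within the range of P5. For Ccp84Ae the order was P4, the 2nd instar, mid pupae and embryo, the last pair overlapping because of mid pupae replicate 1. For Ccp84Ac it was the 2nd instar, embryo, late pupae and imago, with overlap only between embryo and late pupae. The place of the 2nd instar depends on the scaling. By CPM it was below every P5 library for Ccp84Ad (99.2 against 147 to 195) and Ccp84Ag (175 against 209 to 298). The same held for Ccp84Ab (73.0 against 140 to 184). For Ccp84Af the 2nd instar value of 55.7 CPM lay within the P4 range of 47.8 to 58.7.

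Over the 10 stage means of the deposited values, 6 of the genes resembled each other. The 15 pairs without Ccp84Ac had Pearson correlations of 0.56 to 0.98, with a median of 0.89, and the 6 pairs with Ccp84Ac had -0.31 to 0.05. These are descriptions over 10 points that share libraries. The highest correlation was between Ccp84Ad and Ccp84Ag (0.977), and the lowest outside Ccp84Ac was between Ccp84Ab and Ccp84Ae (0.563). The adjacent genes Ccp84Aa and Ccp84Ab had 0.934, and the adjacent genes Ccp84Ae and Ccp84Af had 0.924. Of all 14046 other genes, Ccp84Ad and Ccp84Ag were each other's closest.

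The gene outside the cluster with the closest profile to the mean of the members was CG13047 (r = 0.981), followed by CG15212 (0.951), CG13332 (0.945), CG13711 (0.944) and CG13674 (0.944). None of these is on chromosome 3R. CG13047 stayed within the first 2 by Spearman correlation, with all 30 libraries and on the log2(normalized count + 1) scale, and 2 of the 5 genes, CG13047 and CG13332, stayed within the first 5 in each. Ccp84Ae was closest to Cpr64Ab (0.972), another CPR gene, Ccp84Ab to CG5810 (0.959), Ccp84Ac to CG14937 (0.955), Ccp84Aa to CG13332 (0.954) and Ccp84Af to CG14096 (0.977).

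The genes next to the cluster were also examined. Edg84A, on the Ccp84Ag side, had 21164 ± 2911 normalized counts at P4 and 260 ± 57.3 at P3 (SD, n = 3 each), and it had no count in any of the 3 instars. All members had counts in the 2nd instar library. In the 1st instar, however, Ccp84Ac, Ccp84Ae and Ccp84Af had only 5, 3 and 4 counts, and in the 3rd instar 2, 0 and 3. On the other side, the homeotic gene pb had 12.2 ± 5.09 normalized counts at P4 and 10.7 ± 2.91 at P3 (SD, n = 3 each). Of 10 genes of the Antennapedia complex other than the cuticle genes, 0 were called higher and 1 lower at P4 than at P3. Of all 14047 genes, 1564 (11.1%) were called higher and 1158 lower, so that the counts of this short list are near those shares.

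Other genes of the cuticle were set beside the members. Of 91 other CPR genes tested, 43 were higher and 7 lower at P4 than at P3, with a median difference of 1.03. Of 10 tested Lcp65A genes, a CPR cluster on another chromosome arm that is known for larval cuticle, 7 were higher and 0 lower, with a median of 3.61, and Lcp65Ad, the member of this list with the largest difference between P4 and the other stages (10.95), was higher than at P3 by 11.16. Of Lcp1 to Lcp4, Edg78E, Edg84A and Pcp, 3 of 7 were higher and 0 lower, with a median of 2.10. Of the 26 Tweedle genes, which code for a separate family of cuticle proteins, 10 were higher and 0 lower, with a median of 0.53. Of 13 genes of chitin synthesis and modification 8 were higher and 3 lower, such as the deacetylase gene serp (3.80) and the chitinase gene Cht10 (-3.62). Of 12 genes of the ecdysone cascade 3 were higher and 3 lower, against 1564 and 1158 of all 14047 genes. In this list ftz-f1 was higher by 3.51 (adjusted p = 7.9e-10). Blimp-1, the lowest of the list at P4 against the other stages (-1.84), did not pass the test between P3 and P4 (-0.97, adjusted p = 0.0573). The median of the Ccp84A genes, 5.04, was above that of each of these lists, of which the other CPR genes include the Lcp65A genes.

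At the next step decreases were more frequent than increases in the members and in these lists, except the chitin genes, with 4 higher and 4 lower. Of all genes, 7.93% were called higher and 10.8% lower at this step. Of the 91 other CPR genes 9 were higher and 32 lower at P5 than at P4, of the Lcp65A genes 0 were higher and 5 lower, and of the Tweedle genes 0 were higher and 10 lower. The median differences were -0.33, -1.64 and -0.41, and that of the members was -1.20. In larvae without the 2nd instar, 9 of the 10 Lcp65A genes were higher than in the other stages, where 29.1% of all genes were called higher. Their median was 6.38, whereas the median of the Ccp84A genes there was 0.28. This contrast depends on leaving out the 2nd instar. With all 30 libraries 6 Ccp84A members were called higher in larvae, where 30.8% of all genes were. No Lcp65A values from that fit are given here.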

How the data were processed

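Per the labels, polyA RNA of whole bodies was sequenced from directional libraries. The authors filtered reads with fastp, quantified them with Kallisto against the BDGP6.46 transcriptome, summed the estimates per gene and deposited variance-stabilized values of DESeq2 on a log2 scale. These compress differences between low counts. Inverting the transformation gave whole counts for 100% of the values (tolerance 0.01); totals were 7350353 to 13434700 per library. The smallest step of each library was taken as 1 count. The totals exceed the read numbers given in the text of the study, for a reason not settled here, and counts, floors and bounds rest on this step. Low-count values carry counting error, and folds against 0 use a floor of 3 counts per library. Stages were compared on the deposited values of 29 libraries with limma 3.58.1 in R 4.3.3 (eBayes with trend, moderated test, Benjamini-Hochberg over 14047 genes, threshold 0.05): each stage against the mean of the other 9, and each stage against the one before. The spread of a gene was pooled over all stages, so stages without counts lower it and a stage with unlike libraries raises it. The methods state both that the 2nd instar was left out and that all larvae were averaged, so all 30 libraries were an alternative. The fit was tested on simulated data. Genes named outside the cluster were the 5 most like the mean profile, the closest to each member and direct neighbours. Extremes at P4 were named for some of the lists, and other names were chosen after their values were seen. The members and lists were chosen with earlier results of these data known. Coordinates and lengths are from BDGP6.54 (Ensembl 115), and the files hold none. *D. virilis* was not analysed here.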

Additional observations from a re-analysis of the deposited data

Results flagged for a closer look

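The 2nd instar library, which the comparisons between stages do not use, held counts of all 7 members far above the 3 that a count of 0 allows. The recovered counts were 590 for Ccp84Aa, 646 for Ccp84Ab, 344 for Ccp84Ac, 878 for Ccp84Ad, 1388 for Ccp84Ae, 493 for Ccp84Af and 1550 for Ccp84Ag, in a library of 8854910 counts. Ccp84Ac had a higher normalized count there than in any other library. A single library cannot show how these values vary between 2nd instar samples.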

How the results depend on the processing

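Across 40 settings, of which 29 left out 1 library each, 112 called differences of single members gave 4405 values, of which 4232 kept their direction and call, 172 kept their direction but not the call and 1 was reversed, Ccp84Ae in larvae with all 30 libraries (0.71). With all 30 libraries the members lower than the other stages were 0 in larvae and at P4 (against 1 each), 4 at P1 (against 7) and 2 at P3 (against 6). The members called higher were 1 in the embryo (against 3) and 6 in larvae (against 1), and the members changed were 2 at the step from P4 to P5 (against 5). On the log2 scale with 1 added to the normalized count the members called were 2 higher in larvae, 1 higher in the imago (against 0), 3 from P4 to P5, 3 from late pupae to imago (against 1), 3 between the 2nd and 3rd instar (against 7) and 1 in P4 against the 2nd instar (against 2), and with 0.5 added 3, 1, 3, 3, 3 and 1. The number lower in larvae and at P4 was 0 on both scales and with voom, and it was 3 in larvae with log2(CPM + 1). A minimum difference of 1 left 3 lower at P3 and 0 at P4. With log2(CPM + 1) the members changed were 5 from embryo to larvae (against 3), 2 from P4 to P5 and 2 from the 3rd instar to P1 (against 6). Voom gave 5 in the embryo, 1 in the imago, 5 from embryo to larvae, 3 from late pupae to imago, 2 from the 3rd instar to P1 and 5 in P4 against the 2nd instar. Shares of all genes called are not given for the CPM and voom settings, so these counts show only how the calls moved. A minimum difference of 1 left 1 call in P4 against the 2nd instar. The replicate block also left 1 there and moved no other count by over 1.5 times. The main fit did not treat replicate numbers as pairs. Same-numbered pairs of different stages had a median correlation of deviations of 0.00068, against -0.018 for pairs with different numbers. Of the 126 same-numbered pairs, 47 were over 0.1 (lowest -0.64). Leaving out 1 library gave 3 to 4 members higher in the embryo, 1 to 3 in larvae, 6 in every case at P4, 5 to 6 at P5, 1 in late pupae and 0 at P1, P2, P3, mid pupae and imago. It gave 0 to 1 lower in larvae, 5 to 7 at P1, 6 to 7 at P2, 5 to 7 at P3, 0 to 1 at P4, 6 in late pupae and 5 to 6 in the imago. By step it gave 3 to 4 from embryo to larvae, 3 to 6 from larvae to P1, 0 to 1 from P1 to P2 and from P2 to P3, 6 to 7 from P3 to P4, 2 to 6 from P4 to P5, 5 to 6 from P5 to mid pupae, 3 to 6 from mid to late pupae and 1 to 3 from late pupae to imago, and, with instars as groups, 4 to 5 from embryo to the 1st instar, 6 to 7 to the 2nd, 7 to the 3rd, 5 to 6 from there to P1 and 1 to 7 for P4 against the 2nd instar. In the fit with instars as groups no larval library was left out, since each instar is a single library. Its ranges therefore do not test the libraries that define the instars. The causes were not tested. Of the 5 genes most like the mean profile, 2 stayed among the first 5 by Spearman correlation, with all 30 libraries and with 1 added. Per coding length, Ccp84Ae took 36.6% of the cluster at P4 (against 42.0%), Ccp84Aa 27.0% at P5 (against 30.4%) and Ccp84Ab 60.8% in the 1st instar (against 61.8%). Summing members with near-identical proteins was not run. From P1 to P3, Ccp84Ac, Ccp84Ae, Ccp84Af and Ccp84Ag had at most 9 counts in any library, so that small changes between these stages were not detectable at this depth.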
